A study of Mus musculus with 2 samples.

Results

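The constant region genes of the antibody chains were examined in 2 lung sections: the heavy chain genes Ighm, Ighd, Ighg3, Ighg1, Ighg2b, Ighg2c and Igha, the light chain genes Igkc and Iglc2, and Jchain, which encodes the chain that joins IgA or IgM units into larger complexes. They were taken by symbol, and all 10 were among the 32285 features counted in each section. A B cell first makes IgM and IgD from the same transcript by alternative splicing. After activation it can cut out the DNA between Ighm and a downstream constant gene, so that the same antigen binding site is carried by an IgG, IgE or IgA chain (class switching). A plasma cell, the antibody secreting end stage of the lineage, devotes much of its messenger RNA to 1 heavy and 1 light chain, whereas a resting B cell carries little of either. IgA that is joined by the J chain can be carried across airway lining cells by the receptor Pigr, and class switching to IgA is best known from mucosal surfaces such as the gut and the airways.

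The sections were profiled by spatial transcriptomics on Visium slides, in which tissue lies on an array of barcoded spots 100 µm apart and each spot reports the RNA of the several cells above it. Both came from female Balb/c mice. The study's protocol gives an age of 6 to 8 weeks, which for the injected mouse was the age at injection. The control lung was from an untreated mouse. The metastatic lung was from a mouse given 1000000 cells of 4T1, a Balb/c mammary tumour line, in the mammary fat pad, and was collected 21 to 23 days later, when the line had spread to the lung by itself. Lungs were fresh-frozen and stained for histology. Each group was 1 section, so no test between groups was possible. Section, animal, library and any difference in age at collection cannot be told apart. Intervals are exact 95% intervals for counting error only.

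Over tissue, the control section had 1888 spots, whose counts summed to 20329126 (median of 9643.5 per spot, from 237 to 83152), and the metastatic section 1110 spots and 14657881 counts (median of 11334.5, from 162 to 77512). Members made up 5888 counts in the control section, or 0.0290% of its counts, and 9086 in the metastatic section, or 0.0620%. A level is given below as counts per 10000 counts of the same spots (CP10k). Each count is a unique molecule read near its 3′ end, so levels were not divided by gene length. At these depths a gene at 1 CP10k gave about 1 count in a median spot. Fewer antibody producing cells and less RNA per cell cannot be told apart in such sums. In every comparison of places below, spots were placed by genes outside the antibody loci.

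The order of the genes along the genome bears on how switching proceeds and on which genes are easily confused. On GRCm38, all heavy chain members lie on the minus strand of chromosome 12, in the order Ighm (113418558 to 113422730), Ighd (113406604 to 113416324), Ighg3 (113356224 to 113361232), Ighg1 (113325240 to 113330523), Ighg2b (113302965 to 113307933), Ighg2c (113285325 to 113288932) and Igha (113254830 to 113260236) in the direction of transcription. Igkc lies on chromosome 6 (70726435 to 70726966, plus strand), Iglc2 on chromosome 16 (19198396 to 19200351, minus strand) and Jchain on chromosome 5 (88519809 to 88527891, minus strand). The 4 IgG genes are close copies of each other, with 74.8% to 85.9% identical coding bases. The last 90 coding bases of the secreted form, all within the last exon of that form, are shown for these genes because reads of this length near the 3′ end have to tell them apart. Capitals mark a base that no other IgG gene has at that position.

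Ighg1, chr12:113328979-113329068: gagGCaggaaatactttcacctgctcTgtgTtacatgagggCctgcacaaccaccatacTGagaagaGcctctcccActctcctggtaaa
Ighg2b, chr12:113306392-113306481: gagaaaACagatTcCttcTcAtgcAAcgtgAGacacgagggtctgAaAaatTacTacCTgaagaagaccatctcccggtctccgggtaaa
Ighg2c, chr12:113287392-113287481: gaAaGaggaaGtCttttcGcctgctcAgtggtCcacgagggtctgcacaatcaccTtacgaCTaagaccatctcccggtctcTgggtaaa
Ighg3, chr12:113359668-113359757: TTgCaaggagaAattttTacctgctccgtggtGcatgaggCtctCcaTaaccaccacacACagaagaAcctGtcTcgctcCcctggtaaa

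Any pair of the 4 IgG genes differed at 23 to 36 of these 90 positions, and each had 9 to 16 bases of its own. Ighg2c stands in this genome where Balb/c mice are known to carry the related allele Ighg2a, which was no feature of the tables, so the values of Ighg2c and its split from Ighg2b are uncertain. The lambda genes Iglc2 and Iglc3 were much closer, with 96.5% of coding bases identical and a single base, shown in capitals, that differed at the end.

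Iglc2, chr16:19198539-19198628: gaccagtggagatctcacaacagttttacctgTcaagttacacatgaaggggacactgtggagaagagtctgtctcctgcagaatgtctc
Iglc3, chr16:19065368-19065457: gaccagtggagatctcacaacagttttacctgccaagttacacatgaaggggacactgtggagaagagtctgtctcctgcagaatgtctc

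Counts of Iglc2 and Iglc3 may therefore have been split between near-identical genes, and lambda chains are given as the sum of Iglc1, Iglc2 and Iglc3 where a share is reported.

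The main difference between the sections lay in the switched isotypes, and in Igha most of all. Igha, the IgA heavy chain, gave 241 counts in the control section (0.119 CP10k) and 2340 in the metastatic section (1.60 CP10k), a ratio of 13.5 (11.8 to 15.4). It had a count in 6.51% of control spots and in 44.7% of metastatic spots. With spots thinned to 5000 counts, which kept 1526 control and 1028 metastatic spots and left out the 362 and 82 shallower ones, these shares were 4.39% (3.42 to 5.54) and 29.8% (27.0 to 32.7), and their intervals did not overlap at this equal depth. Among the 11139 features with at least 200 counts in both sections together, Igha had the rank of 16 by ratio.

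The unswitched heavy chains did not share this difference. Ighm, the IgM heavy chain, was at 0.851 CP10k in the control section (1729 counts) and 0.752 in the metastatic section (1103 counts), a ratio of 0.885 (0.820 to 0.955). Ighd, the IgD heavy chain of mature resting B cells, was at 0.260 and 0.158 CP10k, a ratio of 0.607 (0.518 to 0.710). Both were thus lower in the metastatic section by less than 2-fold.

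The IgG genes fell into 3 patterns. Ighg1 had 43 counts in the control section and 340 in the metastatic section, 10.97 times the level (7.97 to 15.4), and Ighg2c had 18 and 123 counts, 9.48 times the level (5.75 to 16.5), with 12 of the 18 in 1 spot. Ighg2b had 301 and 345 counts, a ratio of 1.59 (1.36 to 1.86), but 253 of the control counts lay in 1 spot. Without the highest spot of each section, Ighg2b stood at 0.0236 and 0.120 CP10k. Ighg3, which in mice is known from responses to polysaccharides, was sparse in both, with 36 and 22 counts and a ratio whose interval covered 1 (0.475 to 1.48). The remaining heavy chain gene of the locus, Ighe, had 2 counts in the control section and 0 in the metastatic section.

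Light chains and the J chain showed a similar division. Igkc, the kappa light chain, was at 1.28 CP10k in the control section and 2.74 in the metastatic section, 2.15 times the level (2.04 to 2.26). Iglc2 was at 0.171 and 0.166 CP10k, and the interval of its ratio covered 1 (0.821 to 1.15). The lambda genes together made up 21.7% of light chain counts in the control section and 11.2% in the metastatic section. Jchain had 48 and 319 counts, 9.22 times the level (6.79 to 12.8).

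In all, 5 of the 10 members (Igha, Ighg1, Ighg2c, Jchain and Igkc) were at least 2-fold higher in the metastatic section, against 5.49% of the 16039 features with at least 10 counts. The 10 richest Igkc spots held 446 of 2597 control and 1208 of 4020 metastatic counts, and without them Igkc was under 2-fold. Ighg2b, with a ratio of 1.59, was above 2-fold without the highest spot of each section (0.0236 and 0.120 CP10k). None of the 10 was at least 2-fold lower, against 7.03% of features. The median log2 ratio was 0.89 over the members and -0.08 over all features.

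**Figure D1:**
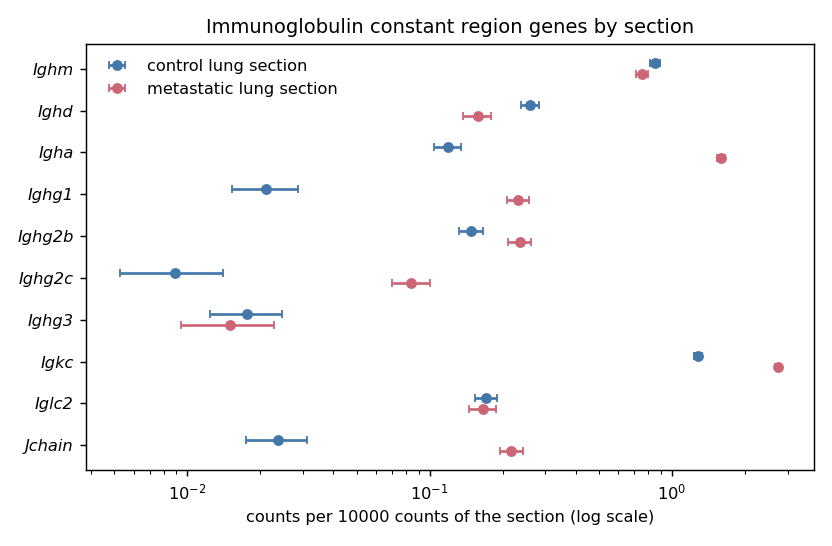
Level of each member in the control (blue) and metastatic (red) lung section, as counts per 10000 counts of the section on a log axis, with exact 95% Poisson intervals for counting error. Igha, Ighg1, Ighg2c and Jchain lie about an order of magnitude apart between sections, while Ighm, Ighg3 and Iglc2 nearly coincide.

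The composition of the heavy chain counts was therefore different. Of 2896 heavy chain counts in the control section, Ighm made up 59.7% (57.9 to 61.5), Ighd 18.2%, Igha 8.32% (7.34 to 9.39) and the 4 IgG genes 13.7%. Of 4504 in the metastatic section, Igha made up 52.0% (50.5 to 53.4), Ighm 24.5%, Ighd 5.13% and the IgG genes 18.4%. Unswitched chains led in the control lung and IgA in the metastatic lung.

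The IgG share of the control section came mostly from few spots. Without the 10 spots richest in heavy chain counts, the IgG share was 4.32% in the control section and 15.8% in the metastatic section, and the Igha share 6.48% and 47.0%. The order of Ighm over Igha in the control section, and of Igha over Ighm in the metastatic section (30.9% for Ighm), was the same without them.

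**Figure D2:**
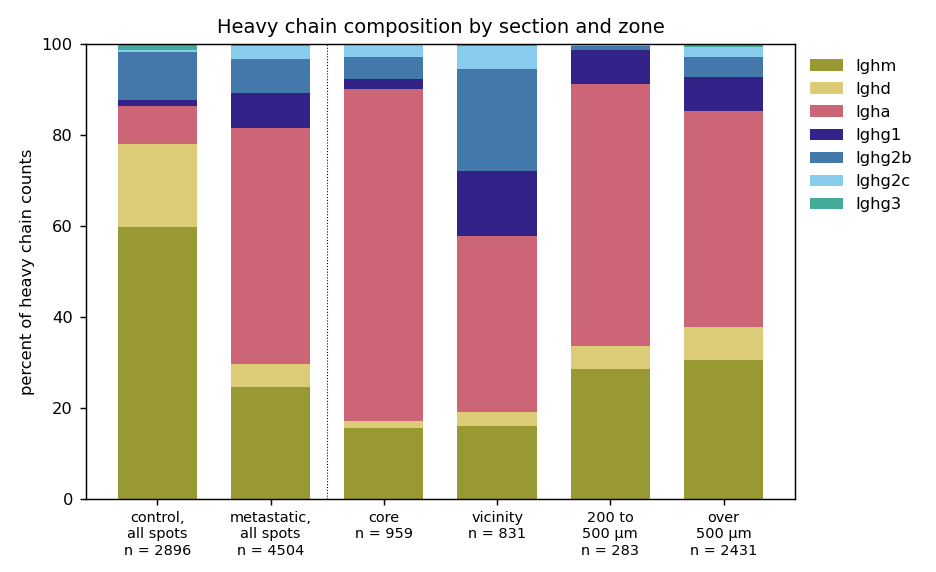
Percent of heavy chain counts taken by each heavy chain gene in the 2 sections and, right of the dotted line, in 4 zones of the metastatic section by distance from the metastasis core, with n the heavy chain counts behind each bar. Igha takes 8.32% of the control bar and between 38.7% and 73.0% of each metastatic zone, and the IgG genes (blue and green) are largest in the vicinity, where 1 spot holds most of them.

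Some members were spread thinly over many spots, some were packed into few, and some combined both patterns. Ighm was spread: its 10 richest spots held 4.28% of its counts in the control section and 8.25% in the metastatic section, and no spot had more than 9 or 12 counts. It took 264 control spots and 133 metastatic spots to reach 50% of its counts. Features with a similar number of counts (within 25%) had medians of 3.40% and 5.35% in their 10 richest spots, and 103 of 930 and 58 of 1016 of them were more concentrated than Ighm. Ighm was thus somewhat above the median of its abundance, but spread when set beside Igha.

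Igha was packed in the control section, and both widespread and peaked in the metastatic section. There it had a count in 44.7% of spots, against 49.5% for Ighm. After thinning to 5000 counts these shares were 29.8% and 28.0%. The 10 richest Igha spots held 40.7% of its counts in the control section (34.4 to 47.2) and 33.7% in the metastatic section (31.8 to 35.7). Features of similar counts had medians of 9.17% and 4.41%. In the control section 4 of 1596 such features were more concentrated than Igha, and in the metastatic section 0 of 399. Jchain behaved alike, with 64.6% and 41.1% in 10 spots against medians of 24.4% and 8.93%.

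Most IgG genes were packed too. In the control section 1 spot held 84.1% of all Ighg2b counts, and in the metastatic section 1 spot held 49.3%. The 10 richest spots held 83.7% and 42.4% of Ighg1, against medians of 26.8% and 8.74% for features of similar counts, and 100% and 63.4% of Ighg2c, against 57.9% and 15.8%. Ighg3 was unlike the other IgG genes in the control section, where its 36 counts lay in 35 spots.

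Igkc, which is used by all isotypes, also combined both patterns. It had a count in 52.4% of control and 66.6% of metastatic spots, yet its highest spots held 276 and 333 counts. Its 10 richest spots held 17.2% and 30.1% of its counts, against medians of 2.95% and 3.98% for features of similar counts. For Iglc2 the shares were 7.78% and 16.05%, against medians of 7.14% and 10.2%, and 478 of 1778 and 72 of 1777 such features were more concentrated.

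**Figure D3:**
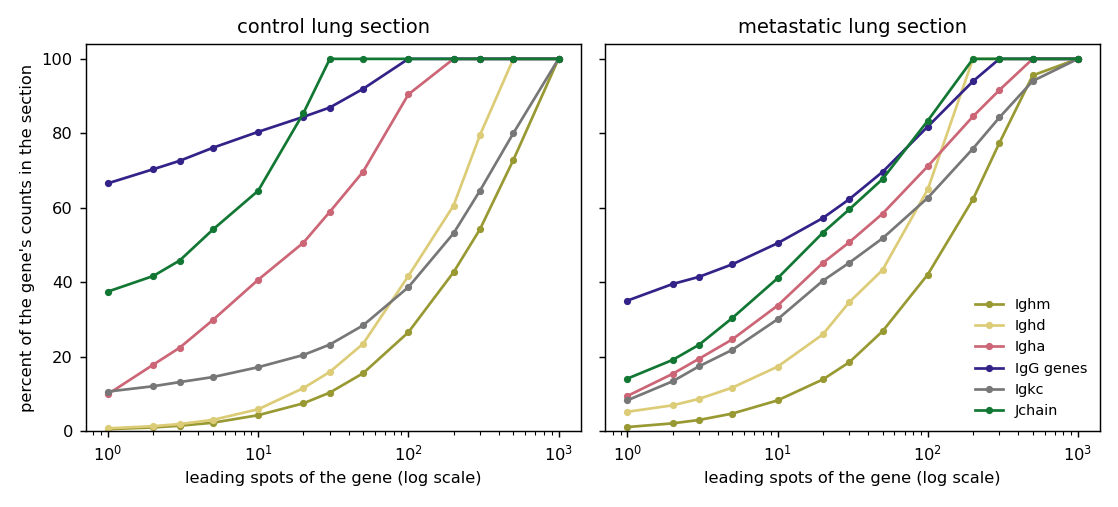
Cumulative percent of a gene's counts (vertical axis) held by its richest spots (horizontal axis, log scale) in the control and the metastatic section; a curve that starts high marks a gene packed into few spots. The IgG genes and Jchain start highest, Ighm and Ighd lowest, and Igha lies between them in both sections.

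The leading spots of each section were rich in IgG or IgA. The first control spot had 16935 counts in all, of which 253 were Ighg2b, 12 Ighg2c, 276 Igkc, 1 Iglc2 and 18 Jchain, with no count of Ighm, Ighd or Igha. Members made up 3.31% of its counts, and it had 2 counts of the 15 B cell genes examined (Ms4a1, Cd79a, Cd79b and others). Its 5 adjacent spots had 18 Ighg2b counts together, from 1 to 8 each, and the 10 spots of the next ring had 5. No spot next to it had more than 8 counts, so this peak was about 1 spot wide.

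The leading IgA spot lay inside the metastasis core. It had 221 Igha counts among 23472, with 205 Igkc, 1 Iglc2 and 12 Jchain counts and no count of any other heavy chain, and 1 count of the B cell genes. Its 6 adjacent spots had 11 Igha counts, from 0 to 5 each, and the 12 spots of the next ring had 25. The next 2 Igha spots, with 139 and 95 counts, also lay in the core, and Igha made up 93.9% and 97.9% of their heavy chain counts.

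The leading IgG spot of the metastatic section, at the border of the core, was mixed within IgG. It had 170 Ighg2b, 84 Ighg1 and 37 Ighg2c counts with 10 Ighm and 1 Igha, 333 Igkc and 45 Jchain counts, and members were 2.53% of its 27099 counts. By contrast, a spot far from the core with 38 Igha counts also had 12 Ighm, 12 Ighd and 36 counts of the B cell genes, so that switched and unswitched chains lay together there.

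Spots with at least 10 heavy chain counts were 11 of the control section (0.583%) and 86 of the metastatic section (7.75%). In the control section Igha led in 6 of them, Ighm in 2, Ighg2b in 2 and Ighg1 in 1, and a single isotype took at least 80% in 7. In the metastatic section Igha led in 63, Ighm in 11, Ighg1 in 5 and Ighg2b in 5. A single isotype took at least 80% in 26 of these, and in 25 of them it was Igha. Each IgG gene was counted singly here. The leading IgG spot, with 291 of its 303 heavy chain counts in IgG, therefore did not pass, with Ighg2b at 56.1%.

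Adjacent spots with at least 10 switched (Igha or IgG) counts were joined into foci. The control section had 5 foci of 6 spots in all, which held 345 counts or 54.0% of the switched counts in 0.318% of spots. The metastatic section had 21 foci of 52 spots, which held 1813 counts or 57.2% of the switched counts in 4.68% of spots. Both sections thus had slightly over 50% of their switched counts in foci, but 265 of the 345 control counts lay in 1 spot. The metastatic section had more foci.

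Each focus was largely IgA or largely IgG. In the metastatic section Igha made up at least 60% of switched counts in 19 of 21 foci and under 5% in the other 2, and in the control section it was at least 60% in 3 of 5 and under 5% in 2. Both IgG foci of the metastatic section touched the core. The first had 334 switched counts (98 Ighg1, 181 Ighg2b, 41 Ighg2c and 14 Igha) and the second 51 (13 Ighg1, 20 Ighg2b, 17 Ighg2c and 1 Igha). Of the 21 foci, 7 touched the core, 10 lay over 500 µm from it and 4 contained a spot rich in B cell genes. The focus with most spots, 9 in all, lay 1947 µm from the core and mixed 108 Igha with 36 Ighg2b counts.

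**Figure D4:**
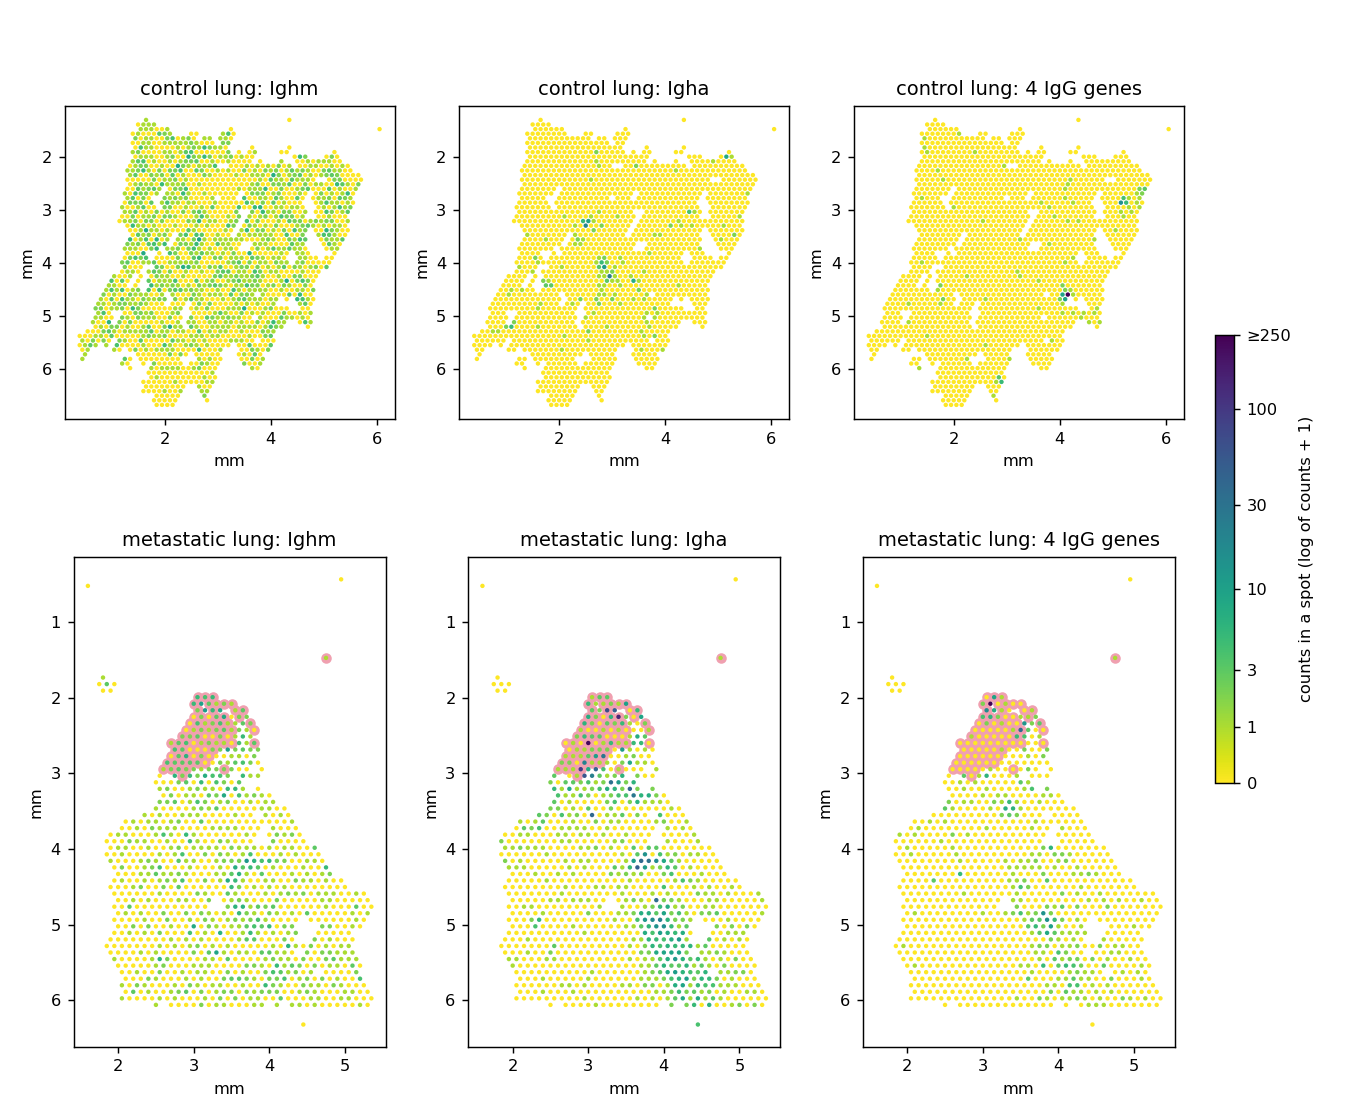
Counts of Ighm, Igha and the 4 IgG genes together in each spot of the control (top) and metastatic (bottom) section, on a log colour scale, with axes in mm of array position; pink discs mark spots of the metastasis core. Ighm is scattered over both sections, whereas Igha is concentrated in and around the core and in a band on the right of the distal lung, and the IgG genes in few spots.

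The location of the counts was next set against the metastasis. Spots were clustered without antibody genes, and the cluster of 75 spots led by S100a4, Saa3 and Lgals1, which had 1.49 CP10k of the proliferation gene Top2a and 11.2 CP10k of the alveolar gene Sftpc, was taken as the core. Of these spots, 70 formed 1 piece. The remaining spots were divided into a vicinity of 56 spots up to 200 µm from the core, 50 spots at 200 to 500 µm, and a distal lung of 929 spots over 500 µm away. Top2a was nearly as high in the vicinity, at 1.40 CP10k, and was at 0.114 in the distal lung. A summed list of tumour genes did not mark the core. It was at 8.28 CP10k there, 8.86 in the vicinity, 6.86 in the distal lung and 10.3 in the control section. Hmga2 was highest in the core, at 0.200 CP10k against 0.0729 in the vicinity and 0.0103 in the distal lung, with 0 control counts.

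Igha was higher in and around the core than in the distal lung. It was at 4.52 CP10k (4.19 to 4.87) in the core, 3.91 (3.50 to 4.37) in the vicinity, 2.58 (2.20 to 3.01) at 200 to 500 µm and 0.991 (0.935 to 1.05) in the distal lung. The ratio over the distal lung was 4.57 (4.15 to 5.02) for the core and 3.95 (3.48 to 4.47) for the vicinity. The summed level and the typical spot gave different orders, since the median spot was at 0.673 CP10k in the core and 1.33 in the vicinity.

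The core excess rested on few spots. Without the single spot of 221 counts the core ratio was 3.17, and without the 10 richest Igha spots of the section it was 1.34, whereas the vicinity ratio was then 2.53. Thinned to 5000 counts, 43.2% of core spots (31.8 to 55.3), 50.9% of vicinity spots and 25.9% of distal spots (23.0 to 29.0) had an Igha count. The core was also the deepest zone, with a median of 19991 counts per spot against 10678 in the distal lung.

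IgG was a feature of the vicinity, through 1 spot. The 4 IgG genes were at 0.620 CP10k in the core, 4.27 in the vicinity, 0.396 at 200 to 500 µm and 0.307 in the distal lung. The leading spot held 291 of the 351 vicinity counts, and without it the vicinity was at 0.754 CP10k and the ratio over the distal lung went from 13.9 to 2.46. In the core, the ratio of 2.02 over the distal lung became 0.847 without the 10 spots richest in IgG.

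The unswitched chains followed another order. Ighm was at 0.969 CP10k in the core, 1.60 in the vicinity, 1.28 at 200 to 500 µm and 0.635 in the distal lung, and Ighd at 0.0840, 0.316, 0.222 and 0.153. The core thus had a lower level of Ighd than any other zone. The ratio of Ighd to Ighm counts was 0.0867 in the core (0.0451 to 0.153), 0.241 in the distal lung and 0.305 in the control section. The 15 B cell genes were at 1.24 CP10k in the core, 3.06 in the vicinity and 1.28 in the distal lung, so the high Igha of the core was not accompanied by a high sum of B cell genes.

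Light chain and J chain peaked in the vicinity. Igkc was at 5.12 CP10k in the core, 11.8 in the vicinity, 3.49 at 200 to 500 µm and 1.75 in the distal lung, and Jchain at 0.504, 1.18, 0.301 and 0.107. The leading IgG spot held 333 of the Igkc and 45 of the Jchain counts of the vicinity, which was at 7.97 and 0.654 CP10k without it. Heavy chain composition by zone gave Igha 73.0% in the core (of 959 counts), 38.7% in the vicinity (of 831), 57.6% at 200 to 500 µm (of 283) and 47.5% in the distal lung (of 2431). Ighg3 had 0 counts in the core, which allows up to 3 counts. The vicinity was also the zone with most macrophage genes (84.3 CP10k against 42.4 in the core and 35.2 in the distal lung) and T cell genes (4.00 against 1.49 and 1.72). Their part in these levels was not tested.

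Over the distal lung, 5 of the 10 members were at least 2-fold higher in the core, against 20.5% of 14429 features, and 1 (Ighg3, with 0 counts) at least 2-fold lower, against 25.5%. In the vicinity 10 of 10 were higher, against 20.7% of 14348 features, and 0 lower, against 17.0%. The median log2 ratio was 1.55 over the 9 members with a count in the core and 2.36 over all 10 in the vicinity, and 0.18 and 0.37 over all features. Ighg3 had 4 counts in the vicinity, and the interval of its ratio covered 1 in both zones. Without the highest vicinity spot of each gene, the vicinity ratio was 1.11 for Ighg2c, 1.59 for Ighg3 and 1.94 for both Ighd and Iglc2. The other members stayed above 2-fold. Without the highest core spot of each gene, the core ratio was 1.83 for Ighg2b and 1.58 for Ighg2c.

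**Figure D5:**
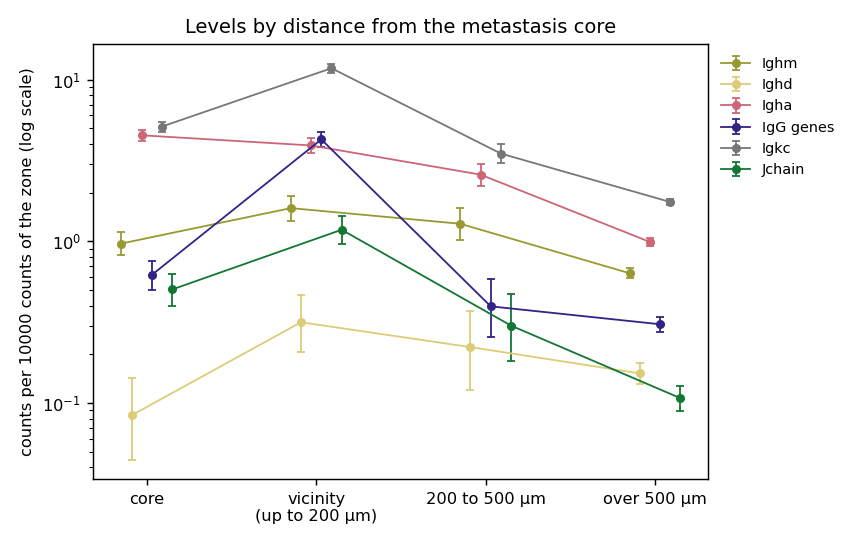
Level of 5 members and of the 4 IgG genes together in 4 zones of the metastatic section by distance from the core, as counts per 10000 counts of the zone on a log axis, with exact 95% Poisson intervals for counting error. Igha goes from 4.52 in the core to 0.991 in the distal lung, while Ighm, Ighd, Igkc, Jchain and the IgG genes are highest in the vicinity.

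The distal lung itself was above the control lung for Igha, Ighg1, Ighg2c and Jchain. Igha was 8.36 times as high in the distal lung as in the control section (7.27 to 9.64), Ighg1 7.26 times, Ighg2c 5.14 times and Jchain 4.54 times, whereas Ighm was 0.746 and Ighd 0.588 times as high. Ighg2b was 0.626 times as high (0.498 to 0.782), at 0.0926 CP10k, though the control section without its leading spot was at 0.0236 CP10k, and the interval for Ighg3 covered 1 (0.466 to 1.58). Of the 10 members, 4 were at least 2-fold higher, against 2.62% of 15866 features, and 0 were at least 2-fold lower, against 6.83%. The difference in Igha between the sections was therefore present in spots over 500 µm from the core too.

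Within the distal lung, much of the Igha lay in a band of spots led by complement and macrophage genes. A cluster of spots led by C3, Apoe, C1qa and Lgals1 made up 113 of the 929 distal spots (12.2%) and held 459 of their Igha counts (39.7%). Its Igha level was 3.36 CP10k (3.06 to 3.69), 4.98 times that of the other distal spots (4.41 to 5.61). This was no matter of single spots, since 75.2% of its spots had an Igha count, the highest had 22 and the median spot 3. It also held 18 of the 28 distal spots that belonged to foci.

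In the same cluster the IgG genes were also high, at 1.01 CP10k and 4.73 times the other distal spots (3.80 to 5.88), with Ighg2b at 6.75 times (4.53 to 10.03, 51 counts) and Ighg2c at 11.5 times (6.43 to 20.98, 32 counts). Ighm was at 1.17 CP10k, 2.08 times (1.74 to 2.48), and Ighd at 1.47 times (0.951 to 2.20). The 15 B cell genes were at 2.29 CP10k, 1.99 times (1.76 to 2.26). The intervals of Igha and of the summed IgG genes thus lay above those of Ighm and the B cell genes.

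A second distal cluster, led by Cd74, Rpl4, Ctss and Cxcl9, was smaller and richer. Its 36 distal spots (3.88%) held 200 Igha counts (17.3%), at 8.24 CP10k and 9.84 times the other distal spots, and Igkc was at 15.2 CP10k. Its Igha was less even, with a count in 58.3% of spots and a highest spot of 48. The B cell genes were at 5.97 CP10k. In the ordinary alveolar cluster led by Inmt, with 246 distal spots, Igha was at 0.740 CP10k.

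B cell marker spots were defined as the 5% of spots of both sections with the highest level of the 15 B cell genes, with at least 5 counts of them and outside the core. This gave 114 control and 33 metastatic B cell marker spots, with similar levels of those genes, at 8.00 and 9.07 CP10k. The 2 sets differed in other genes. T cell genes were 1.68 times the other spots in the control and 3.73 times in the metastatic section, and alveolar genes 1.39 and 1.03 times. In all, 51 control and 12 metastatic spots, called or not, lay within 10% of the threshold on either side.

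Unswitched chains were high in B cell marker spots of both sections. Ighm was at 2.11 CP10k (1.85 to 2.39) in the control and 2.95 (2.43 to 3.53) in the metastatic spots, 2.71 and 4.26 times all other spots of the section. Ighd was at 0.767 and 0.965 CP10k, 3.34 and 7.13 times the other spots. These genes were thus at levels of the same order in both.

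Igha was different. It was at 0.282 CP10k in control B cell marker spots (32 counts) and at 9.93 (8.97 to 10.97) in the metastatic ones (391 counts). Of the 32 control counts, 24 lay in 1 spot, and 6.14% of the control spots had an Igha count against 75.8% of the metastatic ones. With spots thinned to 5000 counts these shares were 5.66% and 66.7%. Igha was 7.27 times as high as in all other spots in the metastatic section (6.50 to 8.11). The control ratio of 2.59 was 1.00 without the 10 richest Igha spots of that section, and 0.575 when the share of spots called was reduced to 2.5%.

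Jchain and Igkc went with Igha in these spots. Jchain was at 0.0352 CP10k in the control and 1.22 in the metastatic B cell marker spots, and Igkc at 3.53 and 18.8. The IgG genes were at 0.203 and 0.737 CP10k, and in the metastatic section they were 1.31 times the other spots, with an interval that covered 1 (0.873 to 1.90). In the control section 7 of 10 members were at least 2-fold higher in B cell marker spots than elsewhere, against 4.77% of 15306 features, and 2 were at least 2-fold lower, against 10.6%. The 7 included Igha, with the limit above, Ighg1, with 15 of its 16 counts in 1 spot, and Ighg3 with 4 counts. The 2 lower members were Ighg2b and Ighg2c. Of their 298 and 18 counts outside B cell marker spots, 253 and 12 lay in the leading control spot. In the metastatic section 7 of 10 were higher, against 14.6% of 14604 features, and 0 were lower, against 13.4%. These 7 included Ighg3 with 3 counts (interval of the ratio 1.08 to 19.4).

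Igha was lower at greater distance from the metastatic B cell marker spots. Outside the core, it was at 9.93 CP10k in them, 1.92 in adjacent spots, 1.55 from there to 200 µm, 1.20 at 200 to 500 µm and 0.341 beyond. The corresponding control levels were 0.282, 0.106, 0.149, 0.0864 and 0.0379. The metastatic rings left out only the core and kept its vicinity, where Igha was at 3.91 CP10k. Distances to B cell marker spots and to the core were thus not separated.

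Airway spots were defined as the 10% of spots with the highest level of 11 airway genes such as Foxj1, Cyp2f2 and Scgb3a2, which gave 193 control and 106 metastatic spots. Secretory Scgb1a1 reached 5070 and 5310 CP10k there, and together with other abundant genes 53.7% and 55.8% of all counts, which lowers the CP10k of every other gene. In these spots 9 of the 10 members were at least 2-fold lower than elsewhere in each section, but so were 54.5% and 51.6% of all features. None of the 10 was at least 2-fold higher, against 6.84% of features in the control and 5.36% in the metastatic section.

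Igha was the exception among the members in the control section. It was at 0.0952 CP10k in airway spots against 0.124 elsewhere, a ratio of 0.767 whose interval covered 1 (0.527 to 1.09), while Ighm was at 0.135 CP10k and 0.132 times elsewhere. With the abundant genes left out of the totals, control Igha was at 0.206 (0.146 to 0.283) in airway spots, 0.268 (0.205 to 0.344) in spots 100 µm away and 0.131 (0.108 to 0.158) in spots over 200 µm away. On that scale Ighm was at 0.293, 1.32 and 1.24. Of these 3 places Igha was thus highest in the ring next to airways, with 38, 61 and 113 counts behind the 3 values. The ring included spots of 19 and 11 Igha counts and the airway spots included 1 of 10, and without the 10 richest Igha spots the airway ratio per 10000 counts was 0.350.

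The metastatic section gave another order of these places. On the scale without abundant genes, and outside the core, Igha was at 0.491 in airway spots, 1.72 in spots 100 µm away and 1.97 in spots over 200 µm away. These places left out only the core and kept its vicinity, where Igha was at 3.91 CP10k, so distances to airway and core were not separated. Of the 21 metastatic foci, 6 lay within 100 µm of an airway spot, all Igha-led and over 500 µm from the core. In the control section 2 of 5 foci did. Pigr, the receptor that carries IgA into the airway, was at 0.802 CP10k in control and 0.430 in metastatic airway spots, 11.4 and 6.82 times elsewhere, and at 0.0129 in the core. Airway spots, where Pigr was high, were thus the lowest of these 3 places for metastatic Igha.

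The lists of other genes of the lineage did not differ between sections as Igha did. Of 15 B cell genes 0 were at least 2-fold higher or lower in the metastatic section, against 5.49% and 7.03% of all features. Their median log2 ratio was -0.38, and their summed level was 1.91 CP10k in the control and 1.42 in the metastatic section. Of 16 plasma cell genes with at least 10 counts, 1 was at least 2-fold higher (Eaf2, 9 and 14 counts) and the median was 0.08. Mzb1, a chaperone of antibody assembly, had 159 and 120 counts, a ratio of 1.05, and Xbp1, a driver of the secretory programme, a ratio of 1.21. Xbp1 and several others of this list are also used by secretory lung epithelium. Of 6 germinal centre genes with enough counts 0 passed 2-fold. For lists of this size, these counts of genes called were near the shares over all features.

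Receptors for antibodies did differ. Of 10 receptor and transport genes with at least 10 counts, 5 were at least 2-fold higher in the metastatic section and 0 lower, against 5.49% and 7.03% of all features. The high affinity IgG receptor Fcgr1 had 36 and 211 counts, 8.13 times the level (5.69 to 11.9), and Fcgr4 60 and 270 counts, 6.24 times. Fcgr2b, Fcgr3 and the shared signalling chain Fcer1g were 3.35, 2.86 and 2.61 times as high. These genes are used by myeloid cells among others, and the part of any cell type in the difference was not tested. Ratios under 1 were seen for the IgM receptor Fcmr (0.504) and the IgE receptor Fcer2a (0.571), both of B cells, for Pigr (0.619) and for Fcgrt, the receptor that recycles IgG (0.668).

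Of 13 homing and survival genes with at least 10 counts, 3 were at least 2-fold higher and 1 lower, against 5.49% and 7.03% of all features, so the share lower was near the background. Cxcl13, the chemokine that draws B cells into follicles, had 22 counts in the control and 194 in the metastatic section, 12.2 times the level (7.85 to 19.97). Lta was 2.24 times as high (26 and 42 counts), Il10 had 1 and 10 counts, and Ccl28, a chemokine for IgA plasma cells, 15 and 2. Tnfsf13b, the B cell survival factor BAFF, was 1.47 times as high, and Cxcl12 was level at 0.980.

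The members were also compared over spots with all 13363 genes outside the antibody loci, as a description of spots that share 1 library each. Genes were ranked by the lower of their r in the 2 sections. By that rule Ighm was most like H2-K1, a class I antigen presentation gene (r of 0.27 over 1888 control and 0.31 over 1110 metastatic spots of log CP10k), with Cd79a among the first 5 (0.25 in both). Igkc was most like Cd79a (0.29 and 0.33). Over metastatic spots alone Cd74 came first for both, with r of 0.34 for Ighm and 0.45 for Igkc. For Igha no gene was alike in both sections, since Fcgr1 came first with r of 0.10 and 0.15. In the metastatic section alone, Igha was most like Ccl8 (0.42), Cd74 (0.39) and C1qa (0.38), and Ccl8 and C1qa are also among the leading genes of the distal cluster led by C3. Among the members, metastatic Igha had r of 0.58 with Igkc and 0.49 with Jchain.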

How the data were processed

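Space Ranger 1.3.1 gave the deposited counts, in which the authors counted each unique molecule of a gene in a spot over tissue, without normalization (mouse build mm10, per the submitters' processing notes). Positions and sequences came from GRCm38 with GENCODE M21, which lists all members under the same gene IDs. The tools were numpy 2.4.6, pandas 2.3.3, scipy 1.17.1, scikit-learn 1.9.0, biopython 1.88 and matplotlib 3.10.9 in Python 3.11.15.

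A level was a sum of counts per 10000 with an exact Poisson interval. Ratios and shares took exact binomial intervals. All of these cover counting error only. The scripts were tested on simulated data. With 1 section per group no test was run, and at least 2-fold with at least 10 counts was the call used. The 2 sections share 858 barcodes, which mark array positions.

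The core and other clusters were rebuilt from the counts by k-means (8 clusters, 2000 variable genes and 20 components, without antibody genes). Named genes were all members, the lists and the 5 genes most alike over spots. Members, lists and the rule for the core were chosen with earlier results of these data known, and the genes that lead a cluster and the spots described singly after their values were seen. The alternatives were other library sizes, thinning, other shares of spots, spot means, and results without the richest spots.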

Additional observations from a re-analysis of the deposited data

How the results depend on the processing

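No paired analysis was possible because each group held 1 section. Of 54 alternatives to the main values, 30 stayed within the counting interval. For the values of the other genes, 121 alternatives stayed within it, 127 moved and 1 reversed in direction. The section ratio of Igha stayed between 11.96 and 15.1, and the main values that moved are these, with causes not tested. Without the 10 spots richest in heavy chain counts, Ighm was 68.3% (control, from 59.7%) and 30.9% (metastatic, from 24.5%) of heavy chain counts, and Igha 6.48% (from 8.32%) and 47.0% (from 52.0%). As a mean over spots, Ighm was 64.2% and 27.9%, and metastatic Igha 49.5%. The share of Ighm counts in 10 spots was 6.00% (control) and 10.9% (metastatic) after thinning to 5000 counts. In 1% of spots it was 7.17% in the control section, where Igha was 49.8%.

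The ratio of Igha in B cell marker spots over other spots of the control section, 2.59, was 1.48 with 2 times as many spots, turned to 0.575 with 2 times fewer, and was 1.00 without its 10 richest spots. In the metastatic section 7.27 became 4.47 with 2 times as many spots, 5.84 with totals without abundant genes, 6.41 without its 10 richest spots and 9.02 after thinning. The core ratio of Igha over the distal lung, 4.57, was 2.90 with spots chosen by tumour genes (28 of 75 shared), 7.83 with 6 clusters, chosen after seeing the data as was the use of 10 clusters, 3.22 with totals without abundant genes and 1.34 without the 10 richest spots. The vicinity ratio, 3.95, was 2.83 and 2.53 under the last 2 of these. The IgG ratio of core over distal lung, 2.02, turned to 0.847 without the 10 richest spots. Ighg2c gave no ratio without its 10 richest spots, since none of its 18 control counts was left. Genes with few counts, such as Ighg3, were limited by depth.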
